A study of Mus musculus with 6 samples.

Results

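The colony stimulating factors and their receptors were followed through the CD45+ cells of glioma-bearing mouse brain. The set was fixed by symbol and held 8 of the 31053 genes of the deposited table, namely the ligands Csf1, Il34 and Csf2 and the receptor chains Csf1r, Csf2ra, Csf2rb, Csf2rb2 and Csf3r. The 8 symbols each matched 1 gene, and none of them was used to name a cell.

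U87 cells, an established human glioma line, had been implanted into the brain of female SCID mice, which lack mature T and B cells. The line carried either an IL-33 construct or the empty pcDNA vector, with 3 mice in each group. The labels give an age of 8 weeks at implantation in 1 field and 6 to 8 weeks in another. IL-33 mice were taken 3 weeks and pcDNA mice 6 weeks after implantation, so that the construct and the time cannot be told apart. The tumor-bearing hemisphere was dissociated, CD45+ cells were sorted, and the RNA of each cell was counted by single-cell RNA sequencing (scRNAseq) from the 3′ end of the transcript. PCR copies of a transcript share its tag, the unique molecular identifier (UMI), and count once. The reads were counted against mouse genes, so factors made by the human tumor cells are outside these values.

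The 6 libraries were deposited as 1 matrix, in which the cell barcodes end in a suffix from 1 to 6 and no label ties a suffix to a mouse. The matrix was therefore treated as 1 pooled sample, and no comparison of IL-33 with pcDNA mice and no test was made. Both groups of mice are in the matrix, so a pooled level mixes them and the spread between suffixes can hold a difference between them. Each pooled level is given in counts per 1000000 UMIs of the same cells (CPM) with an exact Poisson interval, and each ratio with an exact conditional binomial interval. These are 95% intervals of the counting alone, and the spread from mouse to mouse lies outside them. The value in each suffix stands beside the pooled value. There were 2879 to 10217 barcodes and 9745192 to 24393841 UMIs per suffix, and 38751 of 40411 barcodes passed the filters.

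The suffixes were not separate. Of the kept barcodes, 14427 (37.2%) had a sequence that was also kept under another suffix, which concerned 3793 sequences. The share of such barcodes ranged from 21.03% to 51.9% between suffixes. A set of 481 sequences was kept under all 6 suffixes, and for these the UMI total of a barcode in 1 suffix followed its total in another, with Spearman's rho from 0.921 to 0.976 over the 15 pairs of suffixes. Barcodes with a shared sequence were shallow, with a median of 926 UMIs against 3116 in the other 24324. They made up 36.1% of microglia-like cells, 4.93% of monocyte-like cells and 82.8% of cells that passed no marker list. What these barcodes are was not tested. Levels are therefore given for all kept barcodes. Many levels of the members are given again for the barcodes whose sequence was kept under 1 suffix only, called unshared here. The share of all genes called, the pathway ratios, the joint detection of receptor chains and the likeness of genes are for all kept barcodes only.

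Colony stimulating factors are secreted proteins that keep myeloid cells alive and drive their growth and maturation. Csf1 (M-CSF) and IL-34 both bind the receptor kinase encoded by Csf1r, on which microglia depend throughout life. GM-CSF, the product of Csf2, binds an alpha chain encoded by Csf2ra, which pairs with the common beta chain encoded by Csf2rb to signal through JAK2 and STAT5. Csf2rb2 is the mouse paralog of Csf2rb and serves the IL-3 receptor, and Csf3r encodes the receptor for G-CSF, the main growth factor of neutrophils.

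Cells were named by markers. A cell passed a list when it had UMIs on at least 3 of its genes. In all, 36360 cells (93.8%) were microglia-like, 203 monocyte-like, 130 NK cell-like, 53 granulocyte-like, 23 dendritic cell-like and 167 choroid plexus-like. A further 13 cells passed both the monocyte and the dendritic cell list, and 12 were innate lymphoid cell type 2-like (ILC2-like). Another 11 were mast cell- or basophil-like, 2 border-associated macrophage-like and 2 T cell-like. These groups of fewer than 20 cells are given mainly as counts, and for some of them the level of Csf1r or Csf2rb is given with its wide interval. A cell that passed several lists besides the microglial one took the name of the list ahead by at least 3 markers. Cells of the monocyte and dendritic cell lists alone, without such a lead, formed the group of both. The remaining cells of several lists were set apart. So were named cells other than microglia-like ones that had 3 or more of the 12 microglial markers. The paper assigned some clusters of these cells to bone-marrow-derived macrophages, including cells with low levels of microglial genes. Apart from border-associated macrophages, no list here names macrophages, so microglia-like cells can include recruited ones. Their share was not tested. Defining markers were summed to describe the named groups. These are the markers of the gate itself, so their shares are no independent check of the names. Granulocyte markers took 31.2% of the UMIs of granulocyte-like cells and 0.00132% of those of microglia-like cells, and NK cell markers took 2.15% and 0.000448%. The CD45 gene Ptprc was found in 163 of 203 monocyte-like and 17248 of 36360 microglia-like cells, at median depths of 4669 and 2482 UMIs. It was found in 2 of the 11 mast cell- or basophil-like cells, at a median of 1440 UMIs. Among choroid plexus-like cells 1 of 167 had it, at a median of 1078 UMIs. The paper excluded choroid plexus cells as not immune cells, and they are kept here as a group.

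The bases before the start of 3 receptor genes are shown, since PU.1 is a main transcription factor of myeloid cells and its sites hold the letters GAGGAA. The set of RefSeq (GRCm38.p6) promoters used here covered 5 of the 8 members. Csf1r, Csf2rb and Il34 were missing from that set, so these promoters were not searched. The 250 bases before the start are given 5′ to 3′ on the strand of the gene, and the capitals mark GAGGAA on either strand, in the reverse direction written TTCCTC. The starts are those of RefSeq, and for Csf2ra that start lies a few bases inside the GENCODE gene. For Csf3r the GENCODE gene begins at 126024550, so the end of the window lies inside it. The marked GAGGAA of Csf3r, 86 bases before the RefSeq start, is in that part. The windows lie at chr19:61228419-61228668 on the minus strand for Csf2ra, at chr15:78305722-78305971 on the minus strand for Csf2rb2 and at chr4:126024409-126024658 on the plus strand for Csf3r.
Csf2ra: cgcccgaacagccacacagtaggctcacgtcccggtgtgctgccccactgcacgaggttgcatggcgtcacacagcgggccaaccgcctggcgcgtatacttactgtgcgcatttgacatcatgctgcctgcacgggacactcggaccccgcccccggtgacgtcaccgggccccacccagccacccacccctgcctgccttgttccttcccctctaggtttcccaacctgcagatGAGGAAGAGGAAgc
Csf2rb2: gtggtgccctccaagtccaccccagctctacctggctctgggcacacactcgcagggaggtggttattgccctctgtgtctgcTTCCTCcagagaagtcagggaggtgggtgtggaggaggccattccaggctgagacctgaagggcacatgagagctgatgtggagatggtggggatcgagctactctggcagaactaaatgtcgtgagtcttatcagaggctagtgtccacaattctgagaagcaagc
Csf3r: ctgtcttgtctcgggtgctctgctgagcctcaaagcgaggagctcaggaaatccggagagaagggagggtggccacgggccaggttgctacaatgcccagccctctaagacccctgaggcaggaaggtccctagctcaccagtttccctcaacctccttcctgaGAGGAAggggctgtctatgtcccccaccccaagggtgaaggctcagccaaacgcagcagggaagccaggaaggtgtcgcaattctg
The letters occurred in 3 of these 3 promoters, 2 times in Csf2ra, and in neither Csf1 nor Csf2. The Csf2 window lies at chr11:54249900-54250149 on the minus strand, upstream of the GENCODE start at 54249667. The bases next to that start were therefore not searched. Among 32851 promoters of the same length, 23.2% held them. The promoter of Csf1, shown because this ligand varied most among microglial states, lies at chr3:107760470-107760719 on the minus strand, with capitals for matches of the NF-kB consensus on either strand.
Csf1: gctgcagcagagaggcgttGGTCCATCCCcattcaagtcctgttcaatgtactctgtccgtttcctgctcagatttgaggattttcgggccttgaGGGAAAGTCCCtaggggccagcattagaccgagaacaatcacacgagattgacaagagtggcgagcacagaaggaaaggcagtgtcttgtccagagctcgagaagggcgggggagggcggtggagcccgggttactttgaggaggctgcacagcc
There were 3 matches in Csf1, 2 of which overlap by all but 1 base, and 17.6% of all promoters held at least 1. The window of Csf3r held 1 as well, not marked above, at 129 bases before its start. Those of Csf2, Csf2ra and Csf2rb2 held none. No AP-1 (TGANTCA) match was found in the window of any of the 5 members. A match of letters is a description of the sequence and says nothing of binding.

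In the mm10 (GRCm38) genome with the GENCODE M21 genes, Csf1 lies on the minus strand at chr3:107741048-107760469, Il34 on the minus strand at chr8:110741829-110805924 and Csf2 on the minus strand at chr11:54247271-54249667. Of the receptors, Csf1r lies on the plus strand at chr18:61100598-61132149, Csf2ra on the minus strand at chr19:61223957-61228429 and Csf3r on the plus strand at chr4:126024550-126044440. Csf2rb and Csf2rb2 are neighbors on chromosome 15, the former on the plus strand at chr15:78325752-78353847 and the latter on the minus strand at chr15:78282507-78305721. All 8 are protein-coding. Genes on the opposite strand overlap Csf1r (Hmgxb3), Csf2 (Gm12223) and Il34 (Gm15894 and Gm15895). The paper's sequencing metrics list antisense reads, those on the strand opposite to a gene, apart from reads mapped to the transcriptome. Whether reads of the overlapping genes entered the counts was not tested. Of the stretches of 98 bases in the longest Csf2rb transcript, 345 of 4803 (7.18%) also occurred in a transcript of Csf2rb2. None of the 403 stretches in the last 500 bases of that Csf2rb transcript did. Reads that fall in the shared stretches could not be assigned to either gene.

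**Figure D1:**
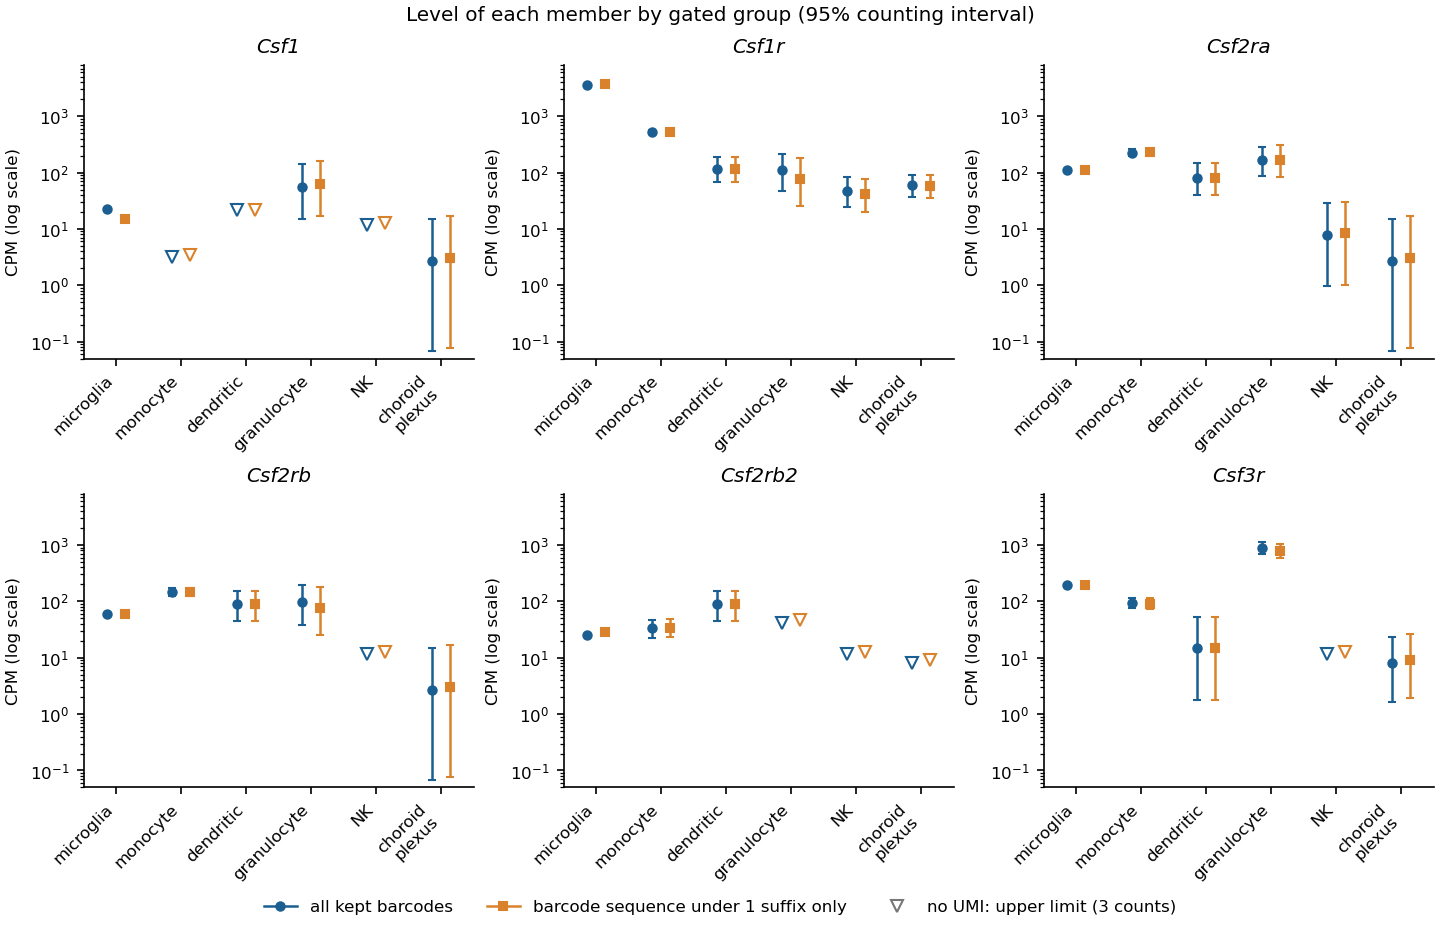
Level of 6 members in the 6 gated groups of at least 20 cells, in CPM on a log scale, with 95% counting intervals. Blue circles show all kept barcodes and orange squares the unshared ones, and open triangles give the upper limit where no UMI was counted. Csf1r led in microglia-like cells at 3533 CPM, Csf3r in granulocyte-like cells at 895 CPM, and Csf1 had no UMI in monocyte-like, dendritic cell-like or NK cell-like cells.

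Csf1 was the ligand found in quantity, and most of its UMIs were in microglia-like cells, the largest group, though not its highest level. There were 2217 Csf1 UMIs in kept cells, 2042 of them in microglia-like cells, where the level was 22.5 CPM (21.5 to 23.5) and 4.32% of cells had a UMI. Across the 6 suffixes the lowest, median and highest levels were 15.1, 22.2 and 27.5 CPM. In unshared barcodes the pooled level was 14.8 CPM (14.0 to 15.7), with suffixes from 12.8 to 16.5 CPM, and in barcodes of shared sequence it was 58.8 CPM (55.1 to 62.7). Barcodes of shared sequence held 930 of the 2042 UMIs.

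Monocyte-like cells had no Csf1 UMI in 932353 UMIs, which allows up to 3.22 CPM. In all kept barcodes the level in microglia-like cells was therefore at least 6.99-fold higher. The gap was smaller in unshared barcodes, where 0 UMIs allow up to 3.39 CPM against 14.8 CPM in microglia-like cells. In suffixes 4, 5 and 6, the only ones with at least 20 monocyte-like cells, the level was 0 each time. These suffixes held 72, 30 and 84 of the 203 monocyte-like cells, while the pooled microglia-like cells come from all 6, so values within the suffix are given with the receptor ratios of these groups below, and the pathway ratios are pooled only. NK cell-like cells had none either, which allows up to 11.8 CPM, and dendritic cell-like cells had none, which allows up to 22.1 CPM. In granulocyte-like cells 4 UMIs in 4 of 53 cells gave 55.1 CPM (15.0 to 141), an interval that includes the level of microglia-like cells. In unshared barcodes, again from 4 UMIs, the level was 61.9 CPM (16.9 to 158.5) against 14.8 CPM. The log2 ratio there was 2.06 (0.18 to 3.42), an interval that leaves out 0. Choroid plexus-like cells had 1 UMI. In the 11 mast cell- or basophil-like cells there were 14 Csf1 UMIs among 17454, in 3 cells and 11 of them in 1 cell. Per UMI this is above the level of microglia-like cells. The same group had 47 UMIs of Cpa3 and 43 of Mcpt8, granule proteases of mast cells and basophils. The cells that passed no list held 128 Csf1 UMIs in 95 of 1457 cells. Their level was 41.2 CPM (24.0 to 66.0) in unshared barcodes and 118 CPM (97.1 to 142) in barcodes of shared sequence. Both are above the 14.8 and 58.8 CPM of microglia-like cells.

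Within microglia-like cells, Csf1 differed by state. A state was given to a cell with at least 3 genes of a list, and states could overlap. The paper names Ifit2, Ifit3 and Irf7, genes of the interferon list here, for a cluster of bone-marrow-derived macrophages. Spp1 and Fam20c, of the Lpl/Fam20c list, are among its top genes of both microglial and macrophage clusters. The state names here therefore do not settle the origin of a cell. Cells of the Lpl/Fam20c state, named for a lipid-hydrolyzing enzyme and a secretory pathway kinase, had the highest level. In these 2013 cells the lowest, median and highest suffix levels were 56.5, 96.0 and 131.7 CPM, and in the 29325 microglia of no listed state they were 11.7, 15.4 and 21.7 CPM. The ranges did not overlap. Pooled, the level was 95.3 CPM (87.8 to 103) against 15.5 CPM (14.6 to 16.5), a log2 ratio of 2.62 (2.47 to 2.76), with the Lpl/Fam20c cells higher in 6 of 6 suffixes. A Csf1 UMI was present in 18.7% of Lpl/Fam20c cells and 2.82% of cells of no listed state, at median depths of 2897 and 2187 UMIs.

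In unshared barcodes both levels were lower and their ratio was larger. Lpl/Fam20c cells had 65.1 CPM (57.9 to 72.9), and by suffix, from 1 to 6, the level was 89.8, 88.2, 82.2, 40.5, 52.4 and 53.9 CPM, so that suffixes 1 to 3 all lay above suffixes 4 to 6. Cells of no listed state had 8.09 CPM (7.34 to 8.90), with suffixes between 6.53 and 9.56 CPM. The log2 ratio was 3.01 (2.79 to 3.23), again with 6 of 6 suffixes higher. Shared barcodes were 44.96% of the Lpl/Fam20c cells and 39.9% of the cells of no listed state. Depth moved with the level as well. Among cells of no listed state, Csf1 was at 37.4 CPM in those of 500 to under 1000 UMIs, 39.96 CPM from 1000 to under 2000, 8.73 CPM from 2000 to under 4000 and 9.57 CPM from 4000. Among Lpl/Fam20c cells it was at 266, 188, 93.8 and 66.5 CPM in the same ranges. The higher level of the Lpl/Fam20c cells was present in each range, with a log2 ratio of 3.43 in cells of 2000 to under 4000 UMIs.

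The other states came between, with cells that were also in the Lpl/Fam20c state kept in them. In all kept barcodes, 422 of the 596 Csf1 UMIs of Lpl/Fam20c cells were in cells of that state alone. The rest count in another state as well. Levels of the other states without these cells were not taken. In unshared barcodes, Csf1 was at 34.9 CPM (29.1 to 41.6) in interferon microglia, 26.3 CPM (24.0 to 28.8) in Ccl2/Il1b microglia, 25.1 CPM (17.8 to 34.3) in MHC class II microglia and 20.8 CPM (13.9 to 29.8) in cycling microglia. The intervals of MHC class II, Ccl2/Il1b and cycling cells overlap, and that of interferon cells overlaps those of MHC class II and cycling cells. The log2 ratios to cells of no listed state were 2.11 (1.81 to 2.40), 1.70 (1.51 to 1.89), 1.63 (1.12 to 2.11) and 1.36 (0.76 to 1.90), and every suffix with at least 20 cells in both groups was higher, 6 of 6 for interferon and Ccl2/Il1b cells, 3 of 3 for MHC class II cells and 5 of 5 for cycling cells. In all kept barcodes the cycling cells had 20.1 CPM (13.6 to 28.7), and the interval of their log2 ratio, 0.37 (-0.20 to 0.90), included 0. There MHC class II cells were at 39.9 CPM and interferon cells at 36.75 CPM, so the order of these states differed.

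**Figure D2:**
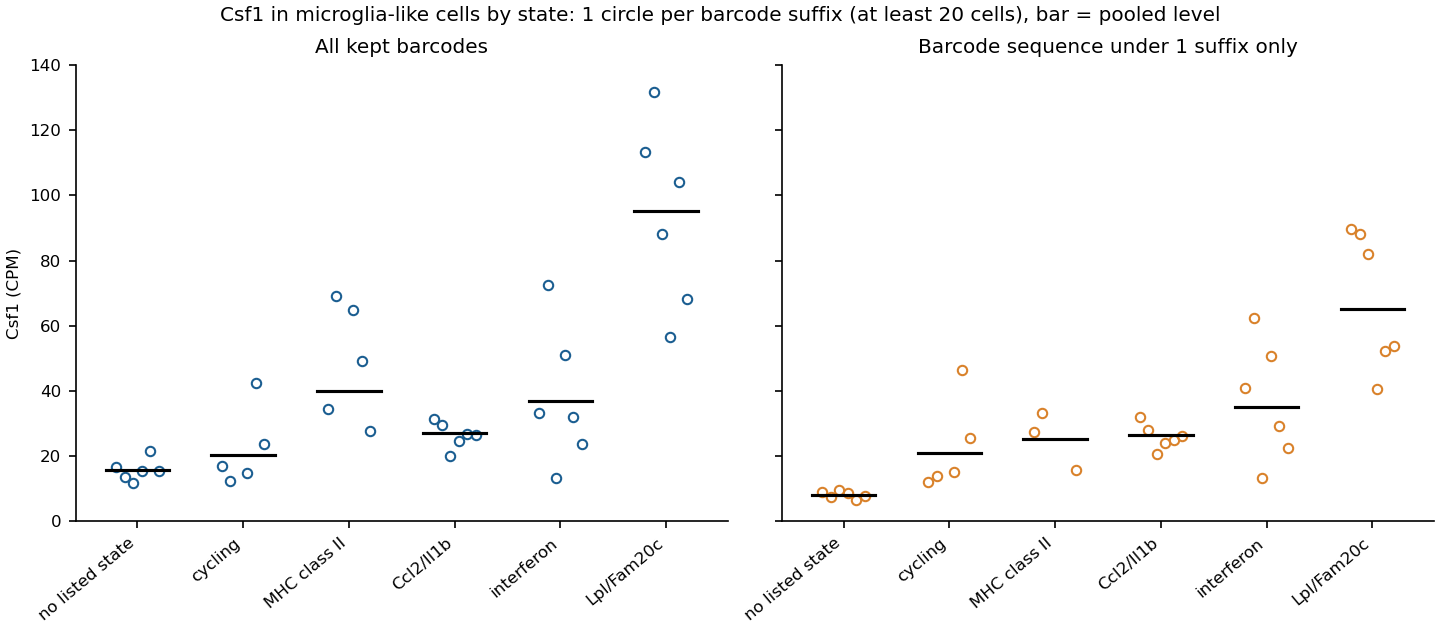
Csf1 level in CPM in microglia-like cells by state, with 1 circle for each barcode suffix of at least 20 cells and a bar at the pooled level. The left panel shows all kept barcodes and the right panel the unshared ones. The 6 suffixes of Lpl/Fam20c cells lie between 56.5 and 131.7 CPM on the left and between 40.5 and 89.8 CPM on the right, above all suffixes of cells of no listed state.

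Il34 was all but missing from these cells. IL-34, the other ligand of the Csf1 receptor, is made in the brain mainly by neurons, which the CD45 sort leaves out. There was 1 Il34 UMI among 95513956 in kept cells, in a dendritic cell-like cell. Microglia-like cells had none in 36360 cells, which allows up to 0.0330 CPM.

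Csf2 was rare and lay in a few cells, 18 of 23 of them with at least 1 marker of ILC2. This lymphoid cell makes type 2 cytokines and carries the IL-33 receptor Il1rl1. Kept cells held 100 Csf2 UMIs in 23 cells, none of which had a shared barcode sequence. The 5 highest cells held 73 of the 100 UMIs, with 22, 19, 13, 12 and 7 UMIs, and each of the 5 had at least 1 of the 6 ILC2 markers (Gata3, Il7r, Il1rl1, Il13, Areg and Calca). Of the 5, only the cell with 19 UMIs was ILC2-like, and the rest passed no list. The cell with 22 UMIs had Il1rl1 as its only ILC2 marker. A single marker does not name a cell, since Il7r was found in 3980 kept cells, 8 of them with Csf2. By suffix the UMIs were 3, 0, 1, 38, 2 and 56 for suffixes 1 to 6, so that suffixes 4 and 6 held nearly all. The ILC2-like cells held 25 of these UMIs in 4 of 12 cells, while 60 UMIs were in 9 cells that passed no list, 8 of them with an ILC2 marker.

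Detection of Csf2 followed the number of ILC2 markers in a cell. Csf2 was found in 5 of 34533 cells with none (0.0145%, Clopper-Pearson 0.00470% to 0.0338%), in 6 of 4159 with 1 (0.144%), in 5 of 41 with 2 (12.2%, 4.08% to 26.2%), in 3 of 8 with 3 (37.5%, 8.52% to 75.5%) and in 4 of 10 with 4 or more (40%, 12.2% to 73.8%). The last 3 intervals overlap. Median depth was 2312, 2957, 4308, 3576 and 4092 UMIs in the same order. Of the 181 kept cells with an Il1rl1 UMI, 6 had Csf2, and these held 47 of the 100 UMIs. Il13, the type 2 cytokine, was found in 11 cells, 5 of them with Csf2.

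**Figure D3:**
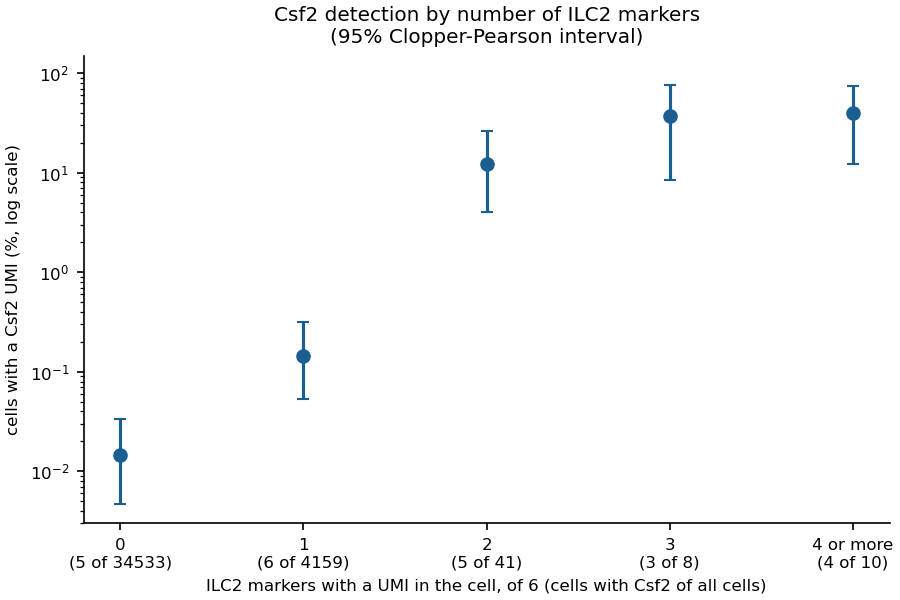
Share of kept cells with a Csf2 UMI, in percent on a log scale, by the number of the 6 ILC2 markers with a UMI in the cell, with 95% Clopper-Pearson intervals. The share was 0.0145% without a marker and 12.2% with 2 markers, and the intervals from 2 markers upward overlap.

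NK cell-like cells had 2 Csf2 UMIs in 2 of 130 cells, or 7.90 CPM (0.957 to 28.5), against 6 UMIs in 3 microglia-like cells, or 0.0661 CPM (0.0243 to 0.144). The log2 ratio was 6.90 (3.56 to 9.39). Monocyte-like, granulocyte-like, dendritic cell-like and choroid plexus-like cells had none. Of the related ligands, Csf3, which encodes G-CSF, had 1 UMI in kept cells and Il3 had 0. Il5, another ligand that signals through the common beta chain, had 9 UMIs, 5 of them in the 12 ILC2-like cells. Kitl and Flt3l, growth factors for progenitor cells, had 640 and 310 UMIs, and Flt3l was at 71.1 CPM in NK cell-like cells against 2.60 CPM in microglia-like cells.

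Csf1r was higher in microglia-like cells than in every other group of at least 20 cells that was not set apart. Of the cells set apart for microglial markers, 30 oligodendrocyte-like cells were at 3957 CPM, a log2 ratio to microglia-like cells of 0.16 (0.04 to 0.28). Microglia-like cells had 3533 CPM (3521 to 3545), with 3278, 3548 and 4024 CPM as the lowest, median and highest suffix, and 97.0% of cells had a UMI. Monocyte-like cells had 493, 495 and 575 CPM in suffixes 4, 5 and 6 and 521 CPM (476 to 570) pooled, with a UMI in 86.2% of cells. All 3 suffixes of monocyte-like cells lay below all 6 of microglia-like cells. The level was 6.78-fold lower in monocyte-like cells, a log2 ratio of -2.76 (-2.89 to -2.63). In unshared barcodes the ratio was -2.81 (-2.94 to -2.68).

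The other groups were lower still, at 118 CPM (67.3 to 191) in dendritic cell-like, 110 CPM (47.6 to 217) in granulocyte-like, 59.5 CPM (37.3 to 90.0) in choroid plexus-like and 47.4 CPM (24.5 to 82.8) in NK cell-like cells, with overlapping intervals. The 2 border-associated macrophage-like cells, named for macrophages at the borders of the brain, had 7 Csf1r UMIs among 4227, or 1656 CPM (666 to 3412), and the 10 such cells set apart for their microglial markers had 144 UMIs, or 2541 CPM (2143 to 2992). The summed microglial markers are given beside Csf1r in the groups of at least 20 cells. They are no independent measure of free RNA, since the gate set apart cells with 3 or more of them and so lowered their level. In NK cell-like cells the markers were at 1.84% of their level in microglia-like cells and Csf1r at 1.34%, and in choroid plexus-like cells at 2.27% and 1.68%. In granulocyte-like cells they were at 3.44% and 3.12%, and in monocyte-like cells at 1.07% and 14.8%. The part of free RNA in these Csf1r levels was not tested. In dendritic cell-like cells the values were 2.20% and 3.33%, from 16 Csf1r UMIs. Where NK cell-like cells with 3 or more microglial markers are taken, 104 cells, the markers were at 59.4% and Csf1r at 66.4%.

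Among microglial states, Csf1r was lower in each listed state than in cells of no listed state, by a small amount. In unshared barcodes the lowest, median and highest suffix was 3410, 3924 and 4156 CPM in cells of no listed state and 2716, 3141 and 3442 CPM in Lpl/Fam20c cells. The ranges overlap, but within a suffix the Lpl/Fam20c cells were lower in 6 of 6. The log2 ratio was -0.32 (-0.34 to -0.29) for Lpl/Fam20c cells and between -0.27 and -0.21 for the other 4 states.

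Among the groups of at least 20 cells, the pooled levels of both chains of the GM-CSF receptor were highest in monocyte-like cells. Csf2ra, the ligand-binding chain, was at 158, 348 and 247 CPM in suffixes 4, 5 and 6 of monocyte-like cells and at 82.0, 113 and 164 CPM as the lowest, median and highest suffix of microglia-like cells. The ranges overlap, but within each of the 3 suffixes the monocyte-like cells were higher. Pooled levels were 226 CPM (197 to 259) and 112.5 CPM (110 to 115), a log2 ratio of 1.01 (0.81 to 1.21). Csf2rb, the signaling chain, was at 167.5, 77.3 and 168 CPM in suffixes 4, 5 and 6 of monocyte-like cells and at 46.5, 61.0 and 74.3 CPM in the lowest, median and highest suffix of microglia-like cells. These ranges did not overlap. Pooled levels were 146 CPM (122 to 173) and 58.8 CPM (57.3 to 60.4), a log2 ratio of 1.31 (1.05 to 1.56). In unshared barcodes Csf2rb was higher in 2 of the 3 suffixes of monocyte-like cells, with 70.8 CPM in suffix 5 against 73.3 CPM in microglia-like cells, and the pooled ratio was 1.29 (1.03 to 1.54). In the smaller groups, 4 of the 11 mast cell- or basophil-like cells had 5 Csf2rb UMIs, or 286.5 CPM (93.02 to 668.5), and 6 of the 13 cells of both the monocyte and the dendritic cell list had 11, or 158 CPM (78.7 to 282). Both intervals overlap that of monocyte-like cells.

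Csf2rb2 did not separate these groups. It was at 33.2 CPM (22.6 to 47.2) in monocyte-like and 25.6 CPM (24.6 to 26.7) in microglia-like cells, with a log2 ratio of 0.38 (-0.19 to 0.88) whose interval includes 0 and which was higher in 2 of 3 suffixes. In cells of 2000 to under 4000 UMIs the ratio was -0.19, and after thinning to 1000 UMIs it was 0.99 (-0.07 to 1.88). The interval left out 0 without suffix 4, at 0.72 (0.07 to 1.29), and with 2 markers needed, at 0.60 (0.03 to 1.12). In the 23 dendritic cell-like cells 12 UMIs in 6 cells gave 88.3 CPM (45.6 to 154), a log2 ratio to microglia-like cells of 1.78 (0.83 to 2.59). The intervals of dendritic cell-like and monocyte-like cells overlap.

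Granulocyte-like cells had levels of Csf2ra and Csf2rb that could not be told from those of microglia-like cells, at 165 CPM (85.4 to 289) and 96.4 CPM (38.7 to 199), with log2 ratios of 0.55 (-0.40 to 1.36) and 0.71 (-0.60 to 1.76). NK cell-like cells had 2 Csf2ra UMIs and none of Csf2rb, Csf2rb2 or Csf3r. The level of Csf2rb in microglia-like cells was at least 4.96-fold that which 0 UMIs allow in NK cell-like cells.

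Csf3r led in granulocyte-like cells, the group that G-CSF acts on. There were 65 UMIs in 34 of 53 cells, or 895 CPM (691 to 1141), at a median depth of 874 UMIs, and no suffix held 20 such cells. Microglia-like cells had 196 CPM (193 to 199), with 174, 194 and 222 CPM as the lowest, median and highest suffix. The log2 ratio was 2.19 (1.82 to 2.54), or 4.57-fold, and in unshared barcodes 1.99 (1.57 to 2.39). It moved with depth and gating, to 0.97 in cells of at least 1000 UMIs, 1.30 after each cell was thinned to 1000 UMIs and 1.41 where cells with microglial RNA were kept. Monocyte-like cells were below microglia-like cells, at 65.7, 54.1 and 113 CPM in suffixes 4, 5 and 6, all under the lowest microglia-like suffix. Their pooled level was 94.4 CPM (75.7 to 116), a log2 ratio of -1.05 (-1.37 to -0.75). Csf3r in NK cell-like cells was at 0, and the level in microglia-like cells was at least 16.5-fold that which 0 UMIs allow.

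The order of the groups of at least 20 cells that were not set apart therefore differed between the receptors. Csf1r ran from microglia-like to monocyte-like cells and then to the rest, Csf3r from granulocyte-like to microglia-like to monocyte-like cells, with intervals that did not overlap between these neighbors. For Csf2ra and Csf2rb, monocyte-like cells came first and granulocyte-like cells second with overlapping intervals, and NK cell-like and choroid plexus-like cells came last, below all other groups.

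Among microglial states the beta chains varied and Csf3r did so less. In unshared barcodes Csf2rb2 was at 19.9 CPM (18.7 to 21.1) in cells of no listed state, with suffixes from 16.8 to 26.6 CPM. The log2 ratio over these cells was 1.42 (1.29 to 1.55) in Ccl2/Il1b cells, higher in 6 of 6 suffixes, and 1.36 (1.13 to 1.59) in interferon cells, higher in 5 of 6. For Csf2rb these ratios were 1.01 (0.93 to 1.10) and 1.03 (0.87 to 1.19), higher in 6 of 6 suffixes each. Csf2ra was at 91.0 CPM (88.4 to 93.6) in cells of no listed state, and its ratios were 0.79 (0.72 to 0.86) in Ccl2/Il1b cells, 0.84 (0.72 to 0.97) in interferon cells and 0.81 (0.70 to 0.93) in Lpl/Fam20c cells, the last with 6 of 6 suffixes higher.

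Csf3r had a ratio of -0.07 (-0.12 to -0.01) in Ccl2/Il1b cells and -0.12 (-0.23 to -0.02) in Lpl/Fam20c cells. It was lowest in cycling cells, with -0.59 (-0.81 to -0.38) and 5 of 5 suffixes lower. The state of a cell also moved with its depth, with median depths of 3869 to 4418 UMIs in the listed states and 2937 UMIs in cells of no listed state among unshared barcodes. Depth was split at 1000, 2000 and 4000 UMIs, with all kept barcodes taken. In these ranges, from low to high, Csf2rb2 was at 8.25, 14.1, 19.8 and 18.4 CPM in cells of no listed state. In Lpl/Fam20c cells it was at 8.87, 17.4, 22.0 and 39.7 CPM. From 2000 to under 4000 UMIs the intervals overlap, at 16.55 to 28.75 CPM in Lpl/Fam20c cells and 18.4 to 21.3 CPM in the others. Csf2rb was at 43.7, 53.3, 48.3 and 47.2 CPM in cells of no listed state and 26.6, 49.6, 57.5 and 74.7 CPM in Lpl/Fam20c cells. The other states were not split by depth.

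**Figure D4:**
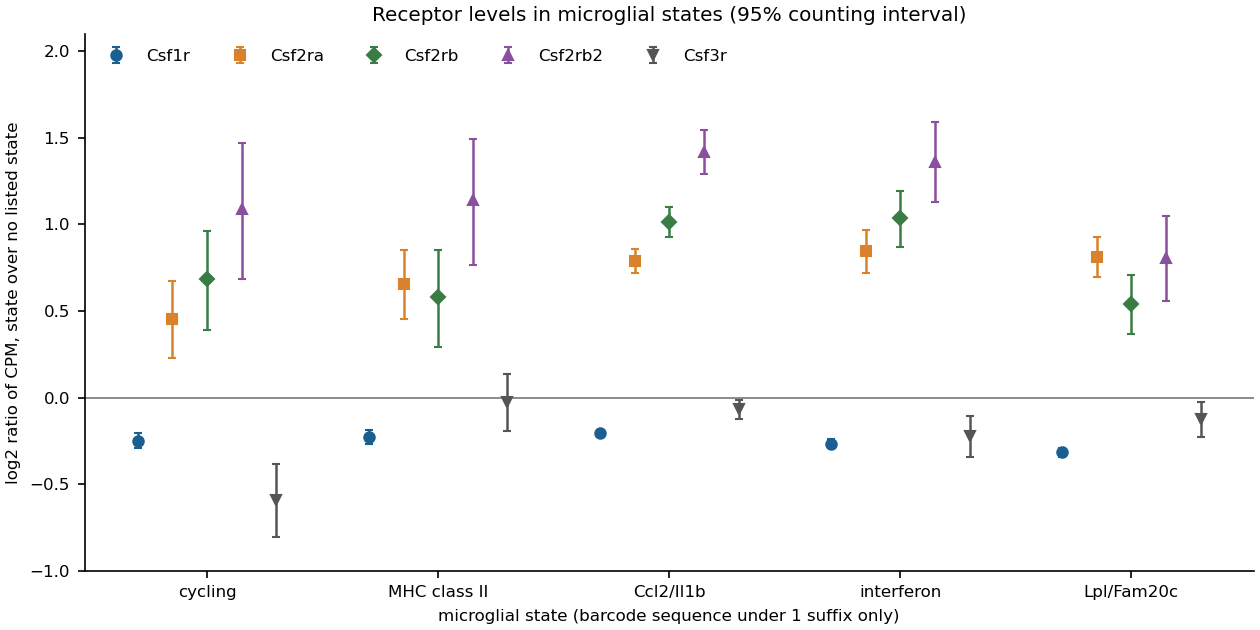
Log2 ratio of CPM of 5 receptor genes in each microglial state over microglia of no listed state, in unshared barcodes, with 95% counting intervals. Csf2ra, Csf2rb and Csf2rb2 lie above 0 in all 5 states, Csf1r lies between -0.32 and -0.21, and Csf3r is lowest in cycling cells at -0.59.

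Csf2ra was found a little more often in cells with Csf2rb than in cells without it. Among 16268 microglia-like cells of 2000 to 4000 UMIs, Csf2ra was found in 27.6% (25.8% to 29.5%) of the 2368 cells with Csf2rb and in 23.9% (23.2% to 24.7%) of the 13900 without it. Split by Csf3r, the shares with Csf2ra were 24.6% and 24.4%, with overlapping intervals. Csf2rb2 was found in 9.16% of cells with Csf2rb and 6.33% of cells without. Depth differed within this range too, with a median of 3138 UMIs in cells with Csf2rb and 2988 in cells without, and its part in these shares was not tested.

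The share of all genes called gives the background for the members. A gene was called where the levels of 2 groups differed at least 2-fold, among genes with a mean of at least 10 CPM over both. Between monocyte-like and microglia-like cells, 18.5% of 7337 genes were higher and 20% lower, and of the 6 members that passed the level filter 2 were higher (Csf2ra and Csf2rb) and 3 lower (Csf1, Csf1r and Csf3r). The interval of Csf2ra, 1.75- to 2.31-fold, spans the 2-fold limit. Between NK cell-like and microglia-like cells, where 26.2% of 7691 genes were higher and 19.8% lower, 0 members were higher and 5 of 6 lower. Between granulocyte-like and microglia-like cells the shares were 16.8% and 24.9% of 6732 genes, with 2 of 6 members higher (Csf1, from 4 UMIs, and Csf3r) and 1 lower (Csf1r). Between Lpl/Fam20c microglia and microglia of no listed state, 2.25% of 7380 genes were higher and 0.366% lower, and Csf1 was the only member called. Members that pass the level filter through 1 high group had to differ, so these counts describe the members and carry no test.

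The pathway around the receptors was followed in a list of 38 genes, of which 26 passed the level filter between monocyte-like and microglia-like cells. Of these 6 were at least 2-fold higher in monocyte-like cells, 7 lower and 13 within 2-fold, where 18.5% of all genes were higher and 20% lower, with a median log2 ratio of 0.55 beside -0.01 over all genes. The kinase gene Jak2 was at 38.6 against 6.54 CPM, a log2 ratio of 2.56 (2.03 to 3.05). Stat5a, a factor it activates below the GM-CSF receptor, had a ratio of 1.77 (1.13 to 2.34). Stat5b, the other STAT5 gene, was within 2-fold, at 0.70 (-0.12 to 1.40), an interval that includes 0. Jak1 and Stat3 were within 2-fold as well. Cbl, which marks receptors for degradation, Socs1, which damps cytokine signals, and Il3ra, the alpha chain for IL-3, had ratios of 1.36, 1.64 and 2.21. Cebpb, a factor of activated myeloid cells, was at 2634 against 604 CPM, a ratio of 2.12 (2.07 to 2.18).

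Among the genes that were lower were Maf, Irf8 and Cebpa of the transcription factors, Socs3 and Bcl2l1 of the targets and the phosphatase gene Inpp5d. Irf8, a factor of macrophage and microglial identity, had a ratio of -1.69 (-1.88 to -1.50), and Maf one of -2.20 (-2.89 to -1.58). Spi1, which encodes PU.1, was within 2-fold, at 654 against 414 CPM. In granulocyte-like cells 25 of the 38 were measured, with 7 higher, 8 lower and 10 within 2-fold, where 16.8% of all genes were higher and 24.9% lower. Cebpe, a factor of granulocyte maturation, was at 96.4 CPM against 0.0331 CPM, and Cebpb had a ratio of 2.12 (1.91 to 2.33). In NK cell-like cells 5 of 26 were higher and 10 lower, where 26.2% of all genes were higher and 19.8% lower. Jak1 had a ratio of 2.26 (2.01 to 2.51), and Spi1 one of -5.13 (-7.40 to -3.58). Between Lpl/Fam20c microglia and cells of no listed state, 22 of the 38 were measured and all 22 were within 2-fold, where 2.25% of all genes were higher and 0.366% lower.

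The genes whose levels were most like each receptor were sought over 43 profiles, each a group or microglial state in 1 suffix with at least 20 cells, among 10823 genes. Most of these profiles are microglial and share suffixes, and there was no granulocyte-like profile, so the values of Pearson's r on log2(CPM + 1) describe these profiles only. For Csf1r the nearest genes were Dock4 (r = 0.985), Adora3, Ctss, Adgre1 and Plxdc1. For Csf3r they were Slc11a1 (r = 0.992), Pros1, Ogfrl1, Fgd2 and Nlrp3. For Csf2rb they were Adam15 (r = 0.974), Il13ra1, Lrrc8d, Scarb1 and C5ar1, and for Csf2rb2 they were C5ar1 (r = 0.906), Lima1, Tlr2, Ctsc and Lifr. Csf2ra was most like Acap2 (r = 0.923), Hlx, Pkib, Ifnar2 and P2ry6. For the ligand Csf1 they were Tcim (r = 0.928), Ctsd, Dst, C1qa and C1qb, and for Csf2 and Il34, which had few UMIs, no likeness is given.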

How the data were processed

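CD45+ cells of 3 IL-33 and 3 pcDNA xenograft-bearing hemispheres were profiled on the 10× Chromium 3′ platform (v2 chemistry). With Cell Ranger 3.1 (3.1.0 in the matrix header) the authors mapped the reads to mm10, and they deposited the raw UMI counts of the 6 libraries as 1 matrix. The annotation release is not given in the sources used here. Later steps of the authors in Seurat 3.1.5 are not in these values. The methods name 3 batches without their members.

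A barcode was kept when more than 200 but no more than 2500 genes were found in it and less than 5% of its UMIs were mitochondrial. Cells passed a list with UMIs on at least 3 markers. Cells of several lists besides the microglial one were left out as possible doublets, unless 1 list led by at least 3 markers. Cells of the monocyte and dendritic cell lists alone, without such a lead, were kept as 1 group. No doublet caller was run. Levels are CPM with exact Poisson intervals. Shares have exact Clopper-Pearson intervals, and thinned cells were reduced to 1000 UMIs. Intervals cover counting error at 95%, and a count of 0 allows up to 3 counts. Depth was 9745192 to 24393841 UMIs per suffix. No group of samples was compared, since no label names the sample of a suffix. The 8 members in each gated group, the pathway list and, for each member of at least 10 CPM in a group, the 5 genes most like it were named. The members and lists were chosen with earlier results of these data known. Alternatives were other gates, filters, depths and suffixes left out. Python 3.11.15, numpy 2.4.6, scipy 1.17.1, pandas 2.3.3 and matplotlib 3.10.9 were used, and the steps were tested on simulated data.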

Additional observations from a re-analysis of the deposited data

Results flagged for a closer look

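Barcodes outside the comparisons also held UMIs of the members, above the 3 counts that 0 allows. That limit was used because no label marks the barcodes of the control samples. In the 893 barcodes with over 2500 genes there were 26835 UMIs of Csf1r, 1606 of Csf3r, 1256 of Csf2ra, 880 of Csf2rb, 383 of Csf2rb2, 185 of Csf1 and 33 of Csf2. Csf2 was at 3.69 CPM in these barcodes against 1.05 CPM in kept cells, and Csf2rb at 98.5 against 59.8 CPM. In the 762 barcodes with 5% or more mitochondrial UMIs there were 3553 UMIs of Csf1r, 224 of Csf3r, 190 of Csf2ra, 99 of Csf2rb, 64 of Csf2rb2 and 32 of Csf1.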

How the results depend on the processing

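Of 125 alternative values for 8 results, 106 stayed within the counting interval of the reported value, 18 moved and 1 reversed. The 106 include 15 values of Csf2 in NK cell-like cells, which rest on 2 UMIs, and 12 of Il34, which rest on 1 UMI. The intervals of these 2 results are so wide that few alternatives could leave them. The log2 ratio of Csf1r in microglia-like over monocyte-like cells, 2.76, was 2.22 with cells carrying microglial RNA kept and 2.44 in cells of 2000 to under 4000 UMIs. The ratio of Csf3r in granulocyte-like over microglia-like cells, 2.19, was 1.41 with those cells kept, 0.97 in cells of at least 1000 UMIs and 1.30 after thinning to 1000 UMIs. The ratio of Csf1 in Lpl/Fam20c microglia, 2.62, was 2.01 with 2 markers and 2.92 with 4 markers needed, 2.37 without the limit on genes, 2.78 in cells of at least 1000 UMIs, 3.01 without shared barcode sequences, 3.43 in cells of 2000 to under 4000 UMIs and 2.86 in cells of that state alone. Csf2rb in monocyte-like over microglia-like cells moved from 1.31 to 1.60 after thinning. Csf2rb2 moved from 0.38 to 0.99 after thinning and reversed to -0.19 in cells of 2000 to under 4000 UMIs. The restrictions to 2000 to under 4000 UMIs and to 1 state were chosen after seeing the data. Il34, at 0.0105 CPM from 1 UMI, was at 0 after thinning, as the median over suffixes and without suffix 6. With each suffix left out in turn, the ratios were 2.73 to 2.88 for Csf1r, 1.83 to 2.37 for Csf3r, 2.35 to 2.75 for Csf1, 0.89 to 1.19 for Csf2ra, 1.15 to 1.45 for Csf2rb and 0.20 to 0.72 for Csf2rb2, Csf2 in NK cell-like cells was at 5.66 to 8.57 CPM and Il34 at 0 to 0.0139 CPM. The cause of these moves was not tested. No paired analysis was possible because no result comes from a test and no label gives the sample of a suffix. Depth limits the groups of 23 to 203 cells, and 3 counts set the limit wherever a member had none.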
